A study of Mus musculus with 24 samples.

Results

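A set of 9 genes of folate one-carbon metabolism was followed through the frontal cortex of mice that received the antidepressant duloxetine, an inhibitor of serotonin and noradrenaline reuptake, the gut bacterium Ruminococcus flavefaciens (R. flavefaciens), both or neither. The members were the 9 of 15456 genes in the normalized count table whose symbol is Mthfd1l, Mthfd1, Mthfd2l, Shmt1, Shmt2, Mtr, Mat2a, Ahcy or Slc25a32. They were chosen by name, with earlier results of these data known. The p-values of the other members are therefore not those of genes chosen without the data. Mthfd1l was singled out by those results for its lower value in mice given both treatments than in controls. Its values are therefore given below as a description. A p-value is given for it only in the contrast of R. flavefaciens with duloxetine, the 1 comparison that shares no mice with the contrast that singled it out. The spread behind that p-value was estimated over all 4 groups, so it also draws on the mice that singled the gene out.

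Folate carries single carbon units that cells take mainly from serine and use to build purines and thymidylate and to remake methionine. The pathway runs in parallel in the cytosol and in mitochondria. Mitochondria release their carbon as formate, which the cytosolic enzymes take up, and the methionine cycle turns it into S-adenosylmethionine, the methyl donor for DNA, histones and neurotransmitters.

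The study asked how R. flavefaciens and duloxetine, alone and together, change transcription in the cortex. All 24 mice were male BALB/C animals (BALB/c OlaHsd in the methods) of postnatal week 11, with 6 mice in each of 4 groups. Control mice, labelled as untreated, received phosphate buffered saline according to the methods, and the others received daily intraperitoneal duloxetine, R. flavefaciens by gavage, or both. Tissue was a punch of frontal cortex, and poly(A) RNA was sequenced. The punch is bulk tissue, so fewer cells of a type and less RNA per cell cannot be told apart. Marker genes of cortical excitatory neurons were abundant, with a mean of 52794 normalized counts for Camk2a. Replicates are the separately numbered mice of the labels. The first number of the label ran from 1 to 3 in controls and was 5 or 6 with duloxetine. It ran from 7 to 9 with R. flavefaciens and from 10 to 12 with both. The labels do not say what this number stands for, and its part cannot be told apart from that of treatment.

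The library of R. flavefaciens mouse 8_4 stood apart from the other libraries. Its 3 listed choroid plexus markers summed to 791 normalized counts, against at most 152 in any other mouse, while Otx2, Folr1 and Kcnj13 were not in the table. Its 6 striatal markers, of which Ppp1r1b was the most abundant, summed to 5230 normalized counts, against at most 2909 in any other mouse. Results that include this mouse are given with and without it where the call of a member changes.

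The start region of the gene the results turn on, and that of Mat2a, the member with the highest level per kb, are shown as RefSeq gives them on GRCm38.p6. Each runs from 250 bases before to 50 bases after the RefSeq start, 5′ to 3′ on the strand of the gene. Capitals mark the core of the cyclic AMP response element (TGACG) and the GC box (GGGCGG), on either strand.
Mthfd1l (chr10:3972825-3973124, plus strand): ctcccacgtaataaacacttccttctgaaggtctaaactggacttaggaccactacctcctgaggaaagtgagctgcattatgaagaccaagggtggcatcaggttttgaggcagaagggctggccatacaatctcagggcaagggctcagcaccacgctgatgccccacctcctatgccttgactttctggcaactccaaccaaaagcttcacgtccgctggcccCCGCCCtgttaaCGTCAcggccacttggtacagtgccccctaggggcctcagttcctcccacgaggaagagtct
Mat2a (chr6:72439507-72439806, minus strand): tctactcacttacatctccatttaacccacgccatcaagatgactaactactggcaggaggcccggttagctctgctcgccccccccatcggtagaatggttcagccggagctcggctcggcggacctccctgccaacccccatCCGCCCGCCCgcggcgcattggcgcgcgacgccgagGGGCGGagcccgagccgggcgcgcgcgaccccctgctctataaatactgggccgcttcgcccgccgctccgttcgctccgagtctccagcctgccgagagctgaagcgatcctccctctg
The Mthfd1l region held 1 core, 12 bases before the start, and 1 GC box. The Mat2a region held 3 GC boxes, of which 2 overlap, and no core. GC content was 55.3% and 67.0%, with 8 and 34 CpG dinucleotides, against medians of 52.7% and 7 over 32851 promoters of the same length. The motifs were chosen after the sequences and values had been seen. The full element TGACGTCA is a longer match that contains the core, and the core of the Mthfd1l region is not part of one. Among 8 members with a RefSeq promoter, the core was also found for Shmt1 and Mtr, and it occurs in 20.8% of all promoters. The GC box was found for 7 of the 8, against 35.7% of all promoters. The full element (1.79% of promoters), TGATGCAA (0.895%) and the E-box CACGTG (7.15%) were found for none of the 8. These are matches of letters, not sites of binding.

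Mthfd1l (ENSMUSG00000040675.17, chr10:3973118-4167081 on GRCm38, plus strand) encodes the mitochondrial enzyme that releases formate. Its row overlaps Gm16074 and Gm25515 on the same strand, so reads could be shared between them. Between 226 and 331 recovered reads per mouse lay behind its values. Per kilobase of merged exons, Mat2a had the highest mean level of the members with 423 normalized counts per kb, and Mthfd1 followed with 103. Mthfd1l was at 63.7, close to Shmt2 at 63.8, with Slc25a32 at 50.3 and Mtr at 40.8 normalized counts per kb. The lowest were Ahcy at 29.0, Mthfd2l at 12.3 and Shmt1 at 7.14 normalized counts per kb. Shmt1, whose values rested on 16 to 46 reads, was measured with the widest intervals of the members.

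Mthfd1l was lowest in the mice given both treatments. In controls its lowest, median and highest values were 266, 322 and 351 normalized counts. With duloxetine alone they were 250.5, 279 and 299. With R. flavefaciens alone they were 288, 308 and 320.2, and with both they were 218, 230.2 and 245 normalized counts. The 6 mice given both were the lowest 6 of all 24 and overlapped with no other group, while the other 3 groups overlapped with each other. The group means were 317 ± 27.8, 277 ± 22.3, 306 ± 13.0 and 231 ± 12.3 normalized counts (SD, n = 6) in this order of groups.

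**Figure D1:**
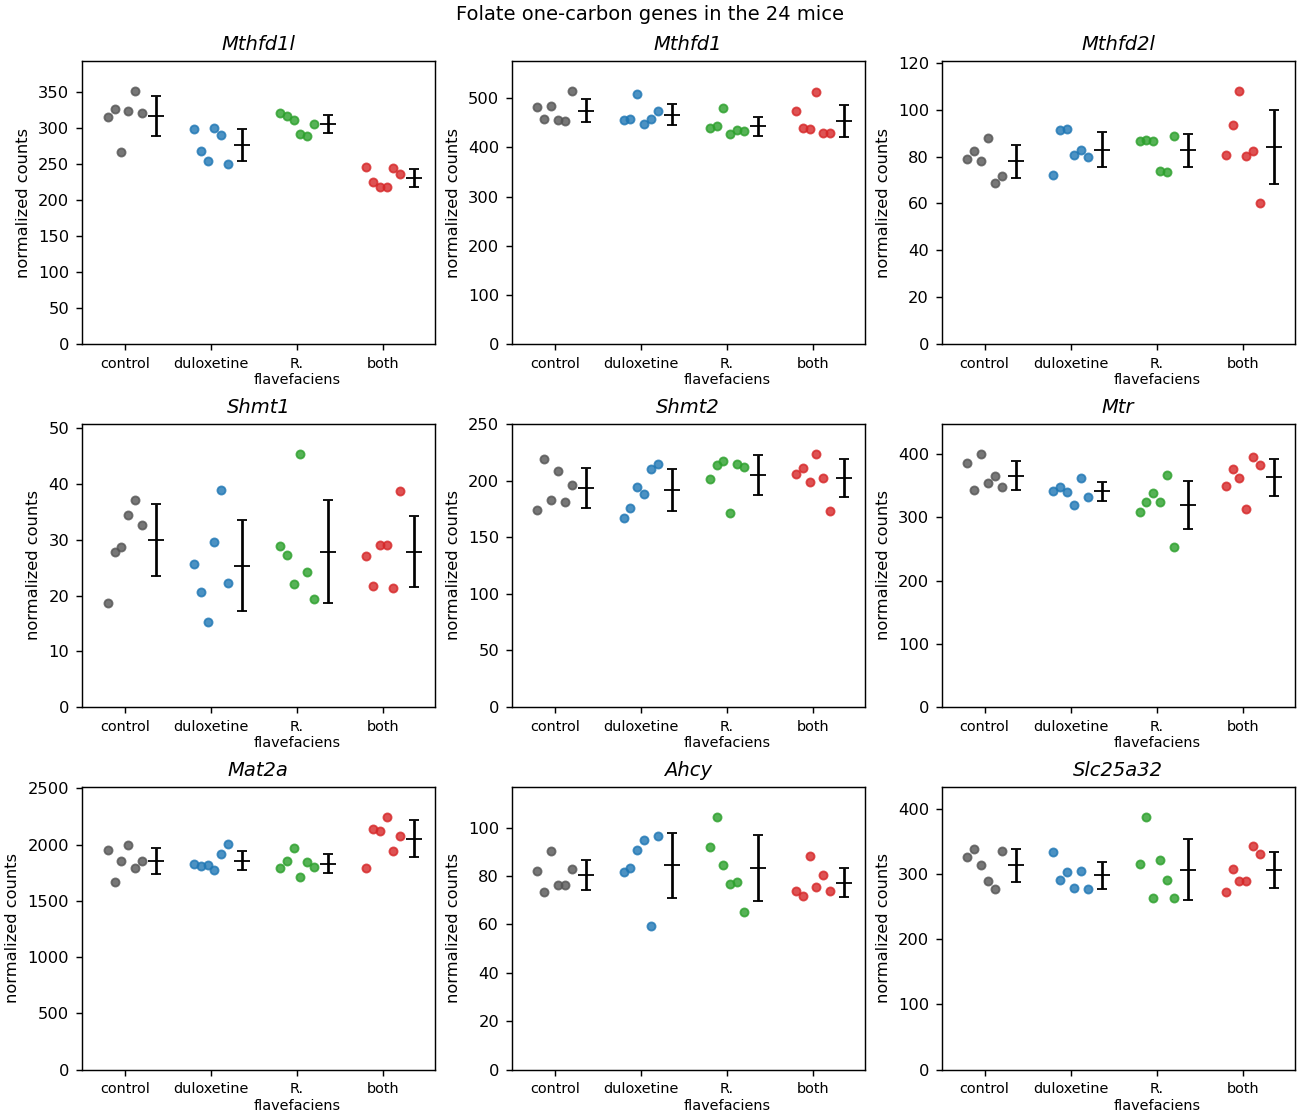
Normalized counts (vertical axis, from 0) of the 9 members in the 24 mice, by group (horizontal axis). Points are mice, and bars show mean and SD (n = 6). The Mthfd1l points of mice given both treatments lie between 218 and 245, below all other mice.

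Against controls, mice given both treatments had a Mthfd1l log2 fold change of -0.45 (SE 0.06, 95% interval -0.58 to -0.32), a change of -26.9%. This is the contrast that singled the gene out. Values did not overlap between the groups, which held for 2.04% of all tested genes. At an adjusted p under 0.05, 0.1% of the 14974 tested genes were DEGs in this contrast, and 1 of the 9 members, Mthfd1l, was among them by its choice. With a mouse left out, the share ran from 0.0334% to 1.03% of all genes. All fold changes are differences of log2(normalized count + 1).

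Against R. flavefaciens alone, the Mthfd1l log2 fold change with both treatments was -0.40 (SE 0.06, 95% interval -0.53 to -0.27). The mice given both are those that singled the gene out, so this is a description too. All 6 were below all 6 given the bacterium, and 1.44% of tested genes had groups that did not overlap. Of all tested genes 2.23% were DEGs here, with Mthfd1l as the 1 member among them by its choice. Without mouse 8_4, and when only these groups were fitted, the log2 fold change was -0.40 as well, and in the latter fit 0 of all genes passed.

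Against duloxetine alone, the Mthfd1l log2 fold change was -0.26 (SE 0.06, 95% interval -0.39 to -0.13), again with the mice that singled the gene out. The groups did not overlap, beside 0.254% of tested genes, from which nothing is read. In this contrast 0 members and 0% of all genes passed by limma, with 883 genes at an unadjusted p under 0.05. By edgeR 0 genes and by DESeq2 1 gene passed, which was not a member.

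Each treatment alone gave smaller Mthfd1l differences. Duloxetine against control gave -0.20 (SE 0.06, 95% interval -0.33 to -0.06). R. flavefaciens against control gave -0.05 (95% interval -0.18 to 0.08). Both use the control mice of the contrast that singled the gene out. With duloxetine 0 members and 0% of all genes were DEGs, with 0 genes by edgeR and 1 by DESeq2, and with R. flavefaciens 0 members and 0.0267% of all genes. That share hung on single libraries, from 0% (mouse 9_3 or any of the controls 1_1, 2_2 and 2_3 left out) to 4.11% without mouse 9_2. R. flavefaciens against duloxetine shares no mice with the contrast that singled the gene out. It gave 0.15 (95% interval 0.01 to 0.28, unadjusted p = 0.0307, limma adjusted p = 0.258). The standard error behind this interval and p-value was estimated over all 4 groups. It also draws on the mice that singled the gene out, so the p-value is not independent of that choice. In this contrast 0 members and 0.12% of all genes were DEGs. That share fell to 0% without mouse 8_4, without mouse 5_4, or with only these groups fitted, and reached 0.454% without mouse 9_2. Ordered by mean, Mthfd1l ran from control through R. flavefaciens and duloxetine to both. Of the neighbours in this order only duloxetine and both did not overlap.

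The 2 averaged comparisons contain the contrast that singled the gene out, so their Mthfd1l values are descriptions as well. Duloxetine averaged over mice with and without the bacterium gave -0.30 (SE 0.05, 95% interval -0.39 to -0.21). Of the members 1, Mthfd1l, was called by its choice, beside 1.03% of all genes. The bacterium averaged over duloxetine gave -0.15 (95% interval -0.25 to -0.06), with 0 members called by limma (0.0267% of all genes), edgeR (0.0267%) and DESeq2 (2.95%). The interaction, that is the duloxetine difference with the bacterium minus that without it, was -0.21 (95% interval -0.39 to -0.02), which also contains that contrast. No gene passed in the interaction (0% of all genes, and 0 by edgeR and DESeq2), so a difference between the duloxetine effects with and without the bacterium was not shown.

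**Figure D2:**
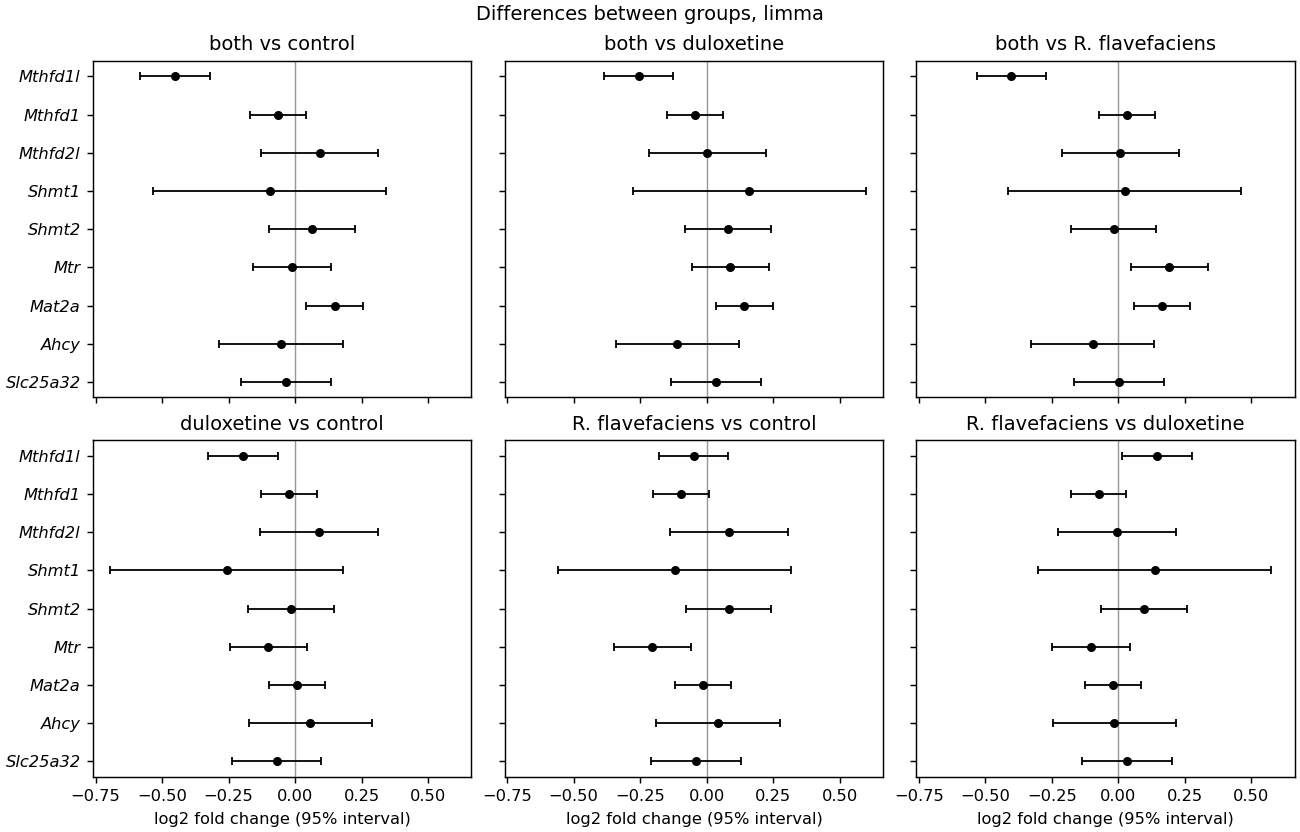
Log2 fold changes (horizontal axis) with 95% intervals from limma for each member in the 6 comparisons between groups. In the upper row Mthfd1l lies to the left of 0 in all 3 contrasts and Mat2a to the right, from 0.14 to 0.16.

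The other mitochondrial members did not pass in any of the 9 comparisons. Shmt2, the mitochondrial serine hydroxymethyltransferase that passes the carbon of serine to folate, had medians of 190 normalized counts in controls, 192 with duloxetine, 213 with R. flavefaciens and 204 with both. The fold change of both treatments against control was 0.06 (95% interval -0.10 to 0.23). Mthfd2l, a dehydrogenase and cyclohydrolase acting before Mthfd1l, had a difference of 0.09 (95% interval -0.13 to 0.31) in the same contrast. Its values with both treatments ran from 60.2 to 108 normalized counts around those of the other groups. Slc25a32, which carries folate into mitochondria, had a difference of -0.04 (95% interval -0.20 to 0.13).

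In the cytosol, Mthfd1, the enzyme with 3 activities that takes up formate, had medians of 469 normalized counts in controls, 457 with duloxetine, 437 with R. flavefaciens and 438 with both. Its differences from control ran from -0.10 with R. flavefaciens (95% interval -0.20 to 0.01) to -0.02 with duloxetine (95% interval -0.13 to 0.08). Shmt1, the cytosolic serine hydroxymethyltransferase, had the widest interval of the members, from -0.53 to 0.34 for both treatments against control. Antisense genes overlap Mthfd1 (3), Shmt1 (2), Shmt2 (1), Mat2a (1) and Ahcy (1), and the library kit named in the methods does not mark strand, so their reads cannot be told apart.

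Mat2a, which makes S-adenosylmethionine, had its highest mean with both treatments, without passing in any comparison. Its lowest, median and highest values were 1665, 1855 and 1994 normalized counts in controls and 1778, 1822 and 2002 with duloxetine. They were 1717, 1826 and 1974 with R. flavefaciens and 1793, 2100.0 and 2247 with both. Of the mice given both, 4 lay above every mouse of the other groups, and 1, mouse 10_2, lay among the lowest of the 24. Against control the log2 fold change was 0.15 (SE 0.05, 95% interval 0.04 to 0.25, unadjusted p = 0.00792, limma adjusted p = 0.169). Against duloxetine it was 0.14 (unadjusted p = 0.0105, limma adjusted p = 0.816) and against R. flavefaciens 0.16 (unadjusted p = 0.00384, limma adjusted p = 0.0837). Mat2a was a DEG against R. flavefaciens by DESeq2 (2 members, 4.17% of all genes) but not by edgeR (1 member, 2.18% of all genes). At an adjusted p under 0.1 by limma, 2 members and 5.62% of all genes passed there. By limma it passed once mouse 8_4 (3.85% of all genes) or mouse 10_2 (1.87%) was left out. Mouse 8_4 was the highest for Mat2a with R. flavefaciens and mouse 10_2 the lowest with both, so leaving out either widens the difference.

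Mtr, the methionine synthase that uses folate and vitamin B12, had its lowest mean with R. flavefaciens alone. Its lowest, median and highest values were 343, 360 and 400.0 normalized counts in controls, 320 to 362 around 341 with duloxetine, 252, 325 and 367 with R. flavefaciens, and 313, 369 and 396 with both. All groups overlapped. R. flavefaciens against control gave -0.20 (95% interval -0.35 to -0.06, unadjusted p = 0.0078, limma adjusted p = 0.124), and both against R. flavefaciens gave 0.19 (unadjusted p = 0.0118, limma adjusted p = 0.138). Mtr had the largest interaction of the members, 0.29 (95% interval 0.09 to 0.50, unadjusted p = 0.00704, limma adjusted p = 0.639), which did not pass. Without R. flavefaciens mouse 9_2, the highest of its group, Mtr passed against control, as 1 of 616 genes (4.11% of all genes) in place of 4. Ahcy, which breaks down S-adenosylhomocysteine, had a difference of -0.05 (95% interval -0.29 to 0.18) for both treatments against control.

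At an unadjusted p under 0.05, members other than Mthfd1l were counted in the comparisons that share mice with the contrast that singled it out. Of these 8 members, Mat2a and Mtr made up every count. There was 1 for both against control (16.8% of all genes), 1 for both against duloxetine (5.9%) and 2 for both against R. flavefaciens (19.7%). There were 0 for duloxetine against control (3.83%) and 1 for R. flavefaciens against control (19.6%). The interaction had 2 (7.53%), averaged duloxetine 1 (14.9%) and the averaged bacterium 0 (18.1%). For R. flavefaciens against duloxetine there was 1 of 9 members, Mthfd1l (16.4%). Where the share of all genes is 14.9% or more, a count of 1 member is below it.

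Of 39 further one-carbon genes, 31 were in the table and 30 were tested, with Mthfs under the minimum mean. Folr1, Folr2, Ftcd, Dmgdh, Bhmt, Bhmt2, Mat1a and Gnmt were not in the table. None of the 30 passed in any of the 9 comparisons by limma, and the smallest adjusted p was 0.0935. At an unadjusted p under 0.05 there were 5 of 30 for both treatments against control, 3 of them higher, beside 16.8% of all genes. There were 3, all higher, for R. flavefaciens against control (19.6% of all genes), and 3, of which 1 was higher, for both against R. flavefaciens (19.7%). These counts are at or below the share of all genes. There were 0 for duloxetine against control (3.83%), 1 for both against duloxetine (5.9%), 2 for R. flavefaciens against duloxetine (16.4%) and 0 for the interaction (7.53%). Averaged duloxetine had 4, of which 3 were lower (14.9%), and the averaged bacterium 3, all higher (18.1%). The median log2 fold change of the 30 genes for both against control was 0.06, beside 0.00072 for all tested genes.

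Mtrr, which reactivates Mtr, had a mean of 218 ± 19.7 normalized counts in controls and 188 ± 31.9 with both treatments (SD, n = 6). Its log2 fold change was -0.22 against control (unadjusted p = 0.0164, limma adjusted p = 0.213). Mmadhc, which acts in the handling of vitamin B12, gave -0.15 for both against R. flavefaciens (unadjusted p = 0.00963, limma adjusted p = 0.126). Aldh1l2, the mitochondrial enzyme that oxidizes formyl-folate, gave 0.59 for both against R. flavefaciens (unadjusted p = 0.00469, limma adjusted p = 0.0935). Mtfmt, which formylates the mitochondrial initiator tRNA, gave 0.16 for both against duloxetine (unadjusted p = 0.0371, limma adjusted p = 0.818), and Gcsh gave 0.12 there (unadjusted p = 0.0532). Cbs, the first enzyme of transsulfuration, gave 0.30 for both against control (unadjusted p = 0.0136, limma adjusted p = 0.198) and 0.28 for R. flavefaciens against control. With R. flavefaciens its highest value, 418 normalized counts, was that of mouse 8_4, against a group median of 273. Gcsh, a carrier protein of glycine cleavage, gave 0.19 for R. flavefaciens against control (unadjusted p = 0.00364, limma adjusted p = 0.098). With R. flavefaciens alone its lowest, median and highest values were 513, 529 and 655 normalized counts, and with duloxetine alone 457, 485 and 509. These groups did not overlap, which held for 1 of the 30 genes, 0 of the 9 members and 1% of all tested genes, and the log2 fold change was 0.17 (unadjusted p = 0.00742, limma adjusted p = 0.166). Sardh, which oxidizes sarcosine, gave 0.25 in the same contrast (unadjusted p = 0.032, limma adjusted p = 0.263). Gart, a purine synthesis enzyme, and Sardh had the smallest p-values for duloxetine against control, with -0.07 and -0.14. The genes with the highest mean in their roles (Aldh1l1, Dld, Ahcyl1 and Psat1) had differences of 0.07, -0.08, 0.05 and 0.13 for both against control, none of which passed.

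**Figure D3:**
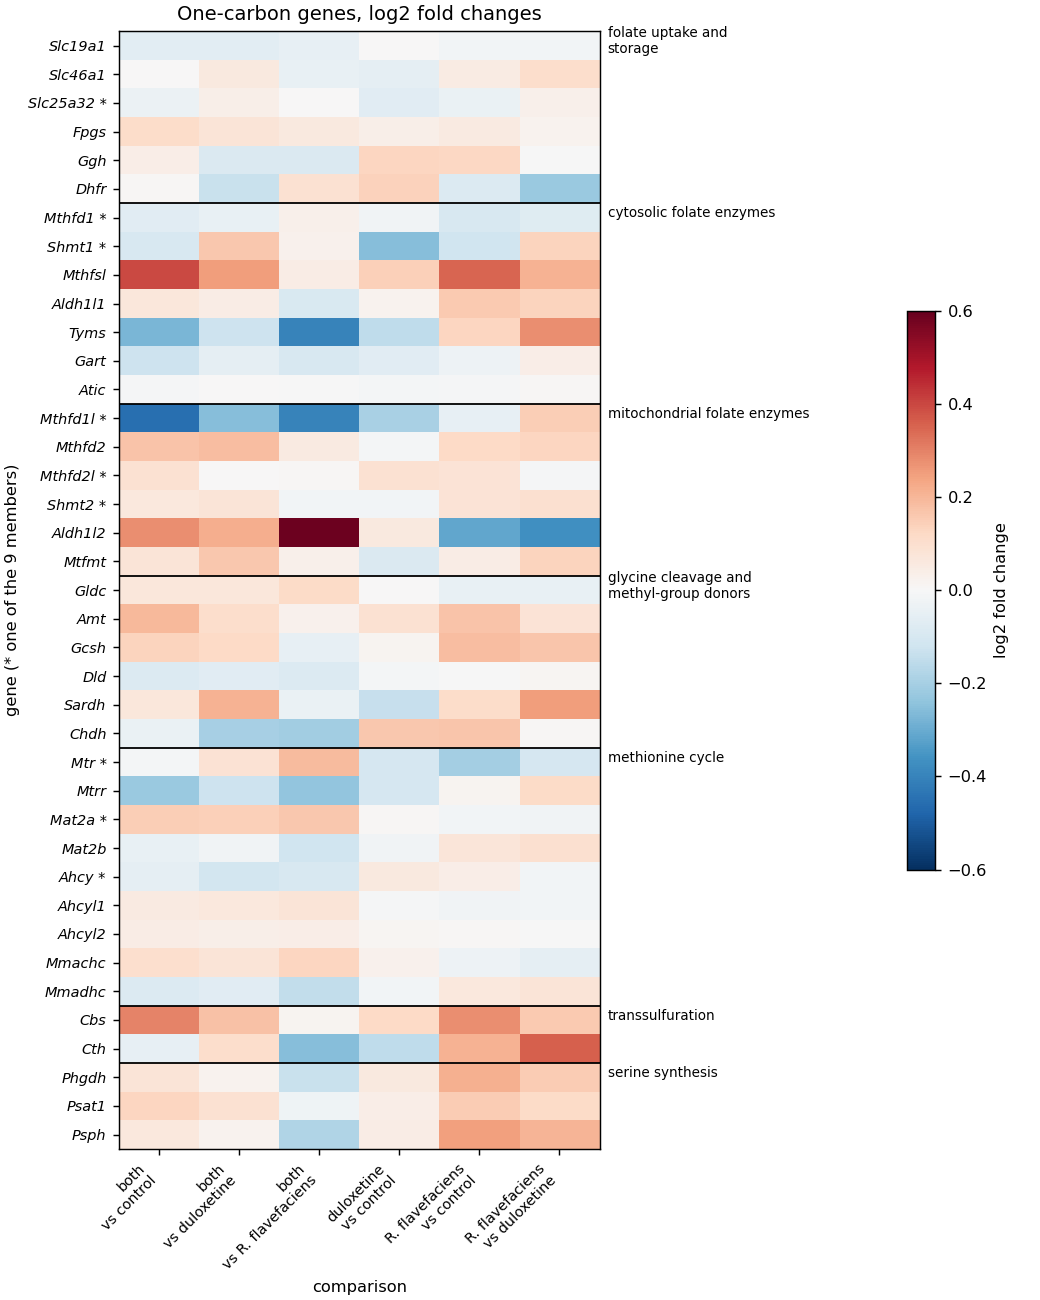
Log2 fold changes (color) of 39 tested one-carbon genes (rows, by role, with the 9 members starred) in 6 comparisons (columns). Mthfd1l is at -0.45 in the contrast of both treatments with control, which chose it, and 5 of the 6 mitochondrial genes are above 0 there.

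Over the 24 mice, the gene most like Mthfd1l by Pearson correlation of log2 values was Tbc1d10b, a Rab GTPase-activating protein (r = 0.94, and 0.79 with the group means taken off). It was followed by Sqstm1, an autophagy receptor (0.86 and 0.66), C2cd2l (0.84 and 0.51), Ap1b1, an adaptor protein subunit (0.82 and 0.57), and Ulk1, a kinase that starts autophagy (0.80 and 0.39). The lowest were Nemp2 (-0.77 and -0.53), Mrpl48, a mitochondrial ribosomal protein (-0.76 and -0.54), and F3, tissue factor (-0.75 and -0.48). Among members Mat2a had the lowest value (-0.65 and -0.34). These are descriptions over mice that share group, normalization and depth. Tbc1d10b had means of 1391, 1327, 1390.2 and 1236 normalized counts in control, duloxetine, R. flavefaciens and both. It was picked for its correlation with Mthfd1l over these mice, so nothing is read from the shared order of the groups.

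**Figure D4:**
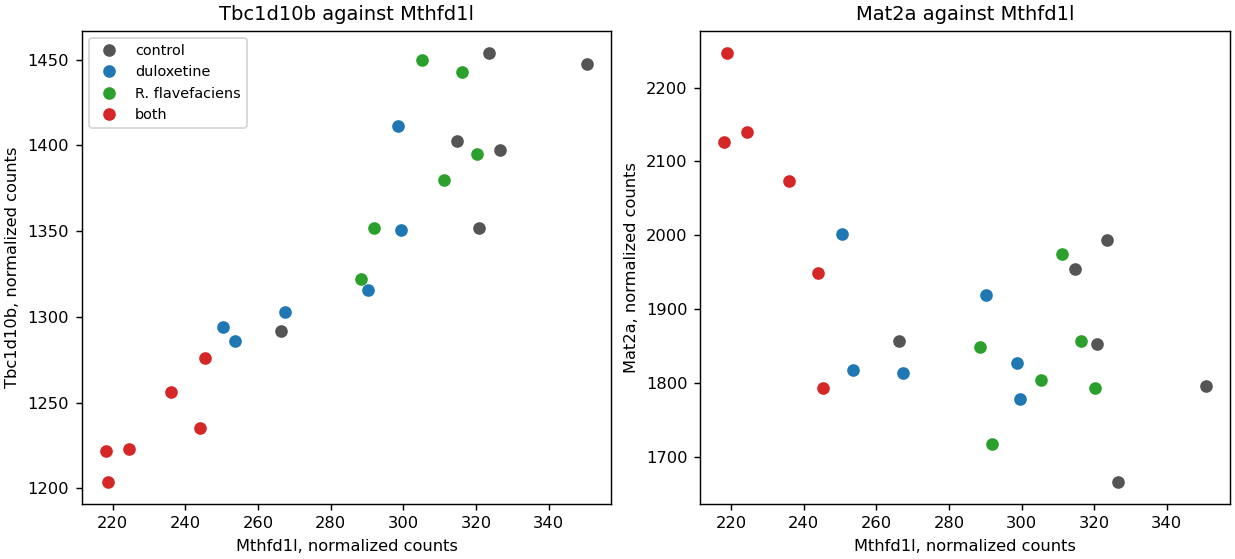
Normalized counts of Tbc1d10b (left) and Mat2a (right) against those of Mthfd1l, with 1 point per mouse colored by group. The Tbc1d10b points run upward (r = 0.94 on the log2 scale) and those of Mat2a downward (r = -0.65), with the mice given both at the left.

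Median depth differed between the groups, and some cell markers, but not all lists, differed at an unadjusted p under 0.05. Recovered reads had medians of 13591497 in controls, 14536037 with duloxetine, 13943370 with R. flavefaciens and 14621655.5 with both, and correlated with Mthfd1l over the 24 mice with r = -0.65 (-0.31 with group means taken off). For both treatments against control, 5 of 6 microglial markers had an unadjusted p under 0.05 (median log2 fold change 0.24), and so had 5 of 5 blood markers (0.78), 3 of 6 astrocyte markers (0.17), 2 of 6 endothelial and pericyte markers (0.14), 1 of 3 choroid plexus markers (0.55) and 1 of 6 inhibitory neuron markers (0.03), beside 16.8% of all genes. The excitatory neuron, oligodendrocyte, meningeal and striatal lists had 0. None of these markers passed after adjustment. Summed microglial markers, of which Csf1r was the most abundant, had medians of 3520.4, 4009, 3917 and 4019 normalized counts in control, duloxetine, R. flavefaciens and both. Summed blood markers, led by Hbb-bs and without Slc4a1 in the table, had medians of 350.1, 354, 535 and 470 normalized counts. Summed astrocyte markers, led by Slc1a2, had medians of 65723, 71476, 68077 and 74611 normalized counts. Against R. flavefaciens, such markers were 2 of 6 each for inhibitory neurons (median log2 fold change -0.11), astrocytes (0.08), endothelial cells and pericytes (0.07) and meninges and fibroblasts (-0.29), and 0 in the other 6 lists, beside 19.7% of all genes. The medians of the choroid plexus and striatal lists were -0.43 and -0.29 there. Against duloxetine there was 1 excitatory neuron and 1 endothelial marker, beside 5.9% of all genes. For R. flavefaciens against duloxetine, 4 of 6 inhibitory neuron markers had an unadjusted p under 0.05 (median log2 fold change 0.18), and 1 each in the excitatory neuron (-0.04), endothelial and pericyte (-0.06), choroid plexus (1.11) and striatal (0.46) lists, beside 16.4% of all genes, and 0 in the other 5. None passed after adjustment. Summed inhibitory neuron markers, led by Gad1, had medians of 9994, 10027, 10946 and 10309.7 normalized counts in control, duloxetine, R. flavefaciens and both, and ran from 9596 to 10392 with duloxetine and from 10283 to 11433 with R. flavefaciens. The part of depth and of these cells in the Mthfd1l difference was not tested.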

How the data were processed

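Poly(A) RNA of 24 mice was sequenced by the authors. According to the methods they mapped reads with Tophat2 to GRCm38.p5, and according to the supplement they normalized with DESeq2. The submitters' processing notes list TopHat2 2.1.0, Bowtie2 2.2.6 and DESeq2 1.18.1 with build mm9, but 14253 of 15438 gene IDs found in GENCODE vM21 have the GRCm38 position given there. The libraries were made with a NEBNext Ultra RNA kit, which does not mark strand. The counting program is not given in the sources used here. The deposited signal values are normalized counts, that is read counts divided by 1 factor per mouse. Whole reads were recovered for 99.974% of 370875 non-zero values within 0.0051, giving 12811413 to 15607343 reads per mouse. Within groups, 60 pairs of mice differed beyond counting error (chi-square per degree of freedom 2.07 to 25.8).

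Members and lists were chosen with earlier results of these data known. Log2(value + 1) of 14974 genes with a mean of at least 10 was fitted with limma 3.58.1 (R 4.3.3, trended prior) over all 4 groups, two-sided, with Benjamini-Hochberg adjustment over all genes, a threshold of 0.05 and 9 comparisons. Standard errors and 95% intervals come from this fit. DESeq2 1.42.0 and edgeR 4.0.16 on recovered reads were alternatives, with pseudocount 0.1, no filter, a minimum mean of 50, only the groups compared, quantile and 75th percentile scaling, a random block by the first label number, a loess on transcript length, and each mouse left out. Named genes were every member and, of the wider list, any gene that passed, the 2 smallest p-values of each comparison between groups and the highest mean of each role, with the 5 highest and 3 lowest correlations with Mthfd1l. Of the wider list 1 gene is not reported here, and the list's counts and names were taken without it. Sequences are from RefSeq, for 8 of 9 members. Tables were made in Python 3.11.15 (pandas 2.3.3, numpy 2.4.6) and figures in matplotlib 3.10.9.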

Additional observations from a re-analysis of the deposited data

Results flagged for a closer look

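In 3 of 36 groups of 6 mice, 1 mouse lay far from the others, with a Dixon ratio (its gap to the nearest mouse over the range of the group) above the 95% critical value. Chance gives about 1 in 20. Mthfd1 was highest in R. flavefaciens mouse 8_4 at 479.9 normalized counts (ratio 0.693978). Shmt1 was highest in R. flavefaciens mouse 9_1 at 45.36 normalized counts (ratio 0.635805), and Shmt2 was lowest in the same mouse at 171.56 (ratio 0.658718). No Mthfd1l group held such a mouse.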

How the results depend on the processing

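R. flavefaciens against duloxetine shares no mice with the contrast that chose the gene. There the Mthfd1l log2 fold change kept its direction and its side of the threshold in 24 of 24 fits with a mouse left out. The same held in 10 of 10 fits with another setting. Leaving out a control mouse or a mouse given both treatments cannot move this fold change, only its standard error. Those fits therefore say nothing about its direction. For both treatments against R. flavefaciens with only those groups fitted (Mthfd1l -0.40), 0 of the 14974 genes passed instead of 334 and 0 members instead of 1. In that contrast 2 members (Mthfd1l and Mat2a) passed at an adjusted p under 0.1 (5.62% of all genes) and 2 with DESeq2 (4.17%). With a mouse left out, 1 to 2 members passed there, with Mat2a joining without R. flavefaciens mouse 8_4 (577 genes in all) or without mouse 10_2 of the combined group (280). For R. flavefaciens against control 0 to 1 passed, Mtr joining without mouse 9_2 (616 genes in all, instead of 4). In the remaining fits the number of members called was as in the report. The causes were not tested. Over all settings the Mthfd1l difference for both against control ran from -0.48 to -0.42, and that with a mouse left out from -0.50 to -0.42. For both against R. flavefaciens it ran from -0.42 to -0.38, and with a mouse left out from -0.42 to -0.39.

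DESeq2 called more genes overall than limma: 217 against 15 for both against control, 488 against 4 for R. flavefaciens against control, 624 against 334 for both against R. flavefaciens, 201 against 18 for R. flavefaciens against duloxetine, 441 against 4 for the averaged bacterium and 321 against 154 for averaged duloxetine. Leaving out 1 mouse also moved the number of genes passing. For both against R. flavefaciens it ran from 47 to 577 around 334, changing by over 1.5 times without mice 8_4 (577), 9_1 (155), 9_3 (178), 11_3 (47), 12_2 (158) or 12_3 (190). For both against control it ran from 5 to 154 around 15, and changed that much without mice 12_4 (154), 9_3 (123), 12_3 (43), 8_4 (23), 1_1, 5_3 or 6_1 (9 each), 12_2 (7), 11_3 (6), 2_1, 3_1 or 10_2 (5 each). For R. flavefaciens against control it ran from 0 to 616 around 4, and changed that much without mice 9_2 (616), 8_3 (427), 9_1 (239), 3_1, 3_3, 7_2 or 8_4 (2 each), 1_1, 2_2, 2_3 or 9_3 (0 each), and it was 221 with the random block. For R. flavefaciens against duloxetine it ran from 0 (without mouse 5_4 or 8_4) to 68 (without mouse 9_2) around 18. For averaged duloxetine it ran from 46 to 260 around 154, and for the averaged bacterium from 1 to 135 around 4. For both against duloxetine it ran from 0 to 2 around 0. With only the groups compared, 196 genes passed for both against control. Rescaling to the 75th percentile gave 20 higher and 4 lower genes there, beside 8 and 7. The loess on transcript length tilted the other way, with 22 higher and 43 lower, and the random block gave 29 higher and 30 lower. No paired analysis was possible because the groups share no replicate number. The first label number had a consensus correlation of -0.05 as a block. Of the members, Shmt1 rested on the fewest reads, 16 to 46 per mouse.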
